A study of Arabidopsis thaliana with 21 samples.

Results

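SnRK1 is a kinase complex that becomes active when cellular energy runs low, restrains growth and favours catabolism, and KIN10 encodes one of its catalytic subunits. The 40 genes described here were those of the 1128 listed root genes that were shifted in roots overexpressing KIN10 in the same direction with and without nitrate. The genes were chosen by their FPKM in the 12 root libraries, and a gene was included when the mean FPKM (fragments per kilobase of transcript, scaled to the mapped fragments of a library) of KIN10ox and Ler roots differed at least 1.5-fold in the same direction both after KNO3 and after KCl, when the 3 libraries a side did not overlap at either treatment, and when the highest group mean was at least 1 FPKM. These criteria held for 51 genes, and 6 with a transcription factor entry, 3 cytochrome P450 genes, CLE7 and ATL8 were set aside. Of the remaining 40 genes, 15 were higher and 25 were lower in KIN10ox roots.

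KIN10ox plants carry HA-tagged KIN10 under the 35S promoter, which is active in most cell types, and the labels name 1 transgene with no independent lines. They are compared with wild-type Ler. Seedlings of both genotypes were raised on 5 mM nitrate for 7 days, kept free of nitrogen for 2 days, and sampled as roots after 1 h with 5 mM KNO3 or 5 mM KCl, with 3 libraries in each of the 4 groups. Protoplasts from leaf mesophyll of wild-type Col-0 plants aged 4 weeks, transfected to express NLP7-GFP with KIN10-Myc, NLP7-GFP alone or GFP, gave 3 libraries in each of 3 further groups. NLP7 is a transcription factor of the nitrate response. Since KIN10 is not among the root genes analysed, overexpression was not checked from its transcript.

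Depth was even, with 19703152 to 20236565 mapped fragments per root library and 16188751 to 20438949 per protoplast library. The root tables hold only genes that the authors listed as nitrate-responsive in KIN10ox or in Ler, so a gene that differed between genotypes without responding to nitrate was not analysed here. KIN10ox library 3 with KCl was the highest in leaf transcripts, and KIN10ox libraries 1 and 3 with KCl were the highest in seed transcripts. The summed FPKM of the 12 listed leaf and photosynthesis genes (of 15 on the list) was 270, 113 and 478 in KIN10ox roots with KCl, against 222, 102 and 115 in Ler roots with KCl, and it was 47.6 to 62.0 in KIN10ox and 100 to 110 in Ler with KNO3. The 8 listed seed reserve and glyoxylate cycle genes (of 10) summed to 36.7, 9.09 and 126 FPKM in KIN10ox roots with KCl, against 5.60, 4.41 and 8.69 in Ler, and with KNO3 to 2.90, 2.39 and 1.98 in KIN10ox, against 3.84, 3.72 and 9.56 in Ler. None of the 12 markers of other root cell types was among the listed genes. None of the 40 genes is on these lists. When KIN10ox libraries 1 and 3 with KCl were left out together, 57 genes met the criteria, 35 of them among the 40. That leaves 1 KIN10ox library with KCl, so the condition of no overlap is easier to meet. The 5 that did not were AT4G16233 and SAG13, both higher in KIN10ox, and AT4G17670, AT4G17680 and KCO2, all lower. The part of the leaf and seed transcripts in the genotype differences was not tested.

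EXT13, an extensin gene of root hairs, did not belong to the set. It had 332, 398 and 259 FPKM in KIN10ox roots with KNO3, against 306, 513 and 593 in Ler roots, so its libraries overlapped at that treatment. With KCl it had 167, 145 and 231 FPKM in KIN10ox roots, against 566, 533 and 345 in Ler roots, with no overlap and a mean 2.66-fold lower in KIN10ox. EXT13 was also the only one of 32 root hair genes among the listed root genes, so the 40 genes cannot be read as a root hair group.

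The 40 genes differ widely in what their products do. SnRK1 is known to act on sugar signalling in part through trehalose 6-phosphate, a sugar phosphate that restrains the kinase and is removed by trehalose-6-phosphate phosphatases. CLE genes encode small secreted peptides that are read by receptor kinases, and glutathione transferases and glucosyltransferases attach glutathione or glucose to reactive or hormone-like molecules. The 40 genes were sorted into role groups for this description. The other listed root genes were not, so the counts by role have no background share. The genes lower in KIN10ox comprised 7 of signalling or regulation, 6 transporters or channels and 4 of the cell wall or apoplast. They also held 4 of conjugation, defence or specialised metabolism, 3 of primary metabolism or protein folding, and 1 with no assigned role. The genes higher in KIN10ox comprised 7 of conjugation, defence or specialised metabolism, 4 of the cell wall or apoplast, 1 transporter, 1 zinc finger gene and 2 with no assigned role. In bulk roots, fewer cells of a type and less RNA per cell cannot be told apart.

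Neighbouring genes shifted together in 4 places. CLE4 and CLE6, separated by 15524 bases and 2 other protein-coding genes on chromosome 2, were both lower in KIN10ox. By locus number CLE7 (AT2G31082), which met the criteria and was set aside, falls between CLE4 (AT2G31081) and CLE6 (AT2G31085). IGMT1 and IGMT4, which encode methyltransferases of indole glucosinolate synthesis, lie 10302 bases apart on chromosome 1 and were both higher. The windows from 250 bases before to 50 bases after the annotated start of these genes are shown because the members of each pair moved together. They were read from the RefSeq TAIR10.1 reference genome, not from the plants sampled, and are given 5′ to 3′ on the gene's own strand. Capitals mark ACTCAT, a motif of basic leucine zipper factors, in the CLE windows and GATAAG, the I-box core known from light-regulated promoters, in that of IGMT1, in either orientation.
CLE4 (chr2:13237771-13238070, plus strand): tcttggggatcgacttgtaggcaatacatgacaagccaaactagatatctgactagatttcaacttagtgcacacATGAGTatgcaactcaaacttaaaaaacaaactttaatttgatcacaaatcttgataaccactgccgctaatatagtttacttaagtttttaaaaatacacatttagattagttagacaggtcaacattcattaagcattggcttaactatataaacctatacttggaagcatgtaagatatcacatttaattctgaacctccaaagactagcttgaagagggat
CLE6 (chr2:13253902-13254201, plus strand): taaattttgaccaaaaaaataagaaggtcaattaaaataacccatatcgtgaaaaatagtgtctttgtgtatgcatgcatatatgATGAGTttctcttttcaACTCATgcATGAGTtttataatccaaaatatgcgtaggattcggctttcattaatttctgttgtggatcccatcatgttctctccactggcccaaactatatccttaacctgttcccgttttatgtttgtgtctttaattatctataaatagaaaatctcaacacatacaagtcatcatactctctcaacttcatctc
IGMT1 (chr1:7388463-7388762, minus strand): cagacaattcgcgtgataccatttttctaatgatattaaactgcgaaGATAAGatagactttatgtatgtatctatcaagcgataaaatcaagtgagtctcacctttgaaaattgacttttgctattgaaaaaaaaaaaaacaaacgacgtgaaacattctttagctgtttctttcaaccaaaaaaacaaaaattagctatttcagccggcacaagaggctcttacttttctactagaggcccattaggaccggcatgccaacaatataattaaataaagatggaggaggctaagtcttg
IGMT4 (chr1:7400687-7400986, minus strand): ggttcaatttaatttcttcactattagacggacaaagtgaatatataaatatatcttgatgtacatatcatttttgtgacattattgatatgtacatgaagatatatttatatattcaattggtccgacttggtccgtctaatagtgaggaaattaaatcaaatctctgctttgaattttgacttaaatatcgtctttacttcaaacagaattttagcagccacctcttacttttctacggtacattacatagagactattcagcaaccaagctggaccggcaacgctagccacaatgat

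The CLE6 window holds ACTCAT or its reverse complement at 3 places, 165, 148 and 140 bases before the start, and the CLE4 window holds it once, 175 bases before the start. In the promoter windows of the 40 genes ACTCAT occurred in 5, or 12.5%, against 14.7% of the windows of all 27443 protein-coding genes. GATAAG occurred in 10 windows (25.0%, against 14.6% of all genes and 18.1% of the listed root genes), and TATCCA, known from sugar-regulated promoters, which overlaps with it in the window of GSTF7, occurred in 6 (15%, against 16.1% of all genes). The G-box CACGTG occurred in 1 window, that of HKT1 (2.50%, against 7.68% of all genes), and the evening element AAAATATCT in 1, that of AT4G17670 (2.50%, against 2.82%). These matches, sought on both strands, describe the letters of the windows. The IGMT1 and IGMT4 windows shared a longest aligned run of 15 identical bases, and the CLE4 and CLE6 windows gave no alignment.

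Across all listed root genes, 14.5% were lower and 4.26% were higher in KIN10ox with KNO3 by the 1.5-fold and no-overlap criteria, against 5.76% lower and 11.8% higher with KCl, and 3.01% were lower and 1.86% higher at both. These values were used to choose the 40 genes, so their genotype differences are a description and carry no test. The 25 lower genes were 1.52- to 33.0-fold lower with KNO3 (median 2.26) and 1.57- to 25.8-fold lower with KCl (median 2.55), with groups at 0 taken at a floor of 3 counts over the group. The 15 higher genes were 1.53- to 5.06-fold higher with KNO3 (median 1.93) and 1.58- to 78.2-fold higher with KCl (median 2.13). At least a 2-fold difference at both treatments was seen for 15 of the 25 lower genes and for 4 of the 15 higher genes. Most of the genes were weakly expressed, and the highest group mean was under 10 FPKM for 19 of the 25 lower and 11 of the 15 higher genes. Just inside the threshold were AT4G17670, with a smaller fold of 1.52, IGMT4 with 1.53 and AT4G16233 with 1.58. Just outside it were AT5G18840 with 1.49, AT1G59740 with 1.47 and TPPJ, another trehalose-6-phosphate phosphatase gene, with 1.45, all lower in KIN10ox at both treatments. Without a fold threshold, another 50 genes had libraries that did not overlap in the same direction at both treatments.

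**Figure D1:**
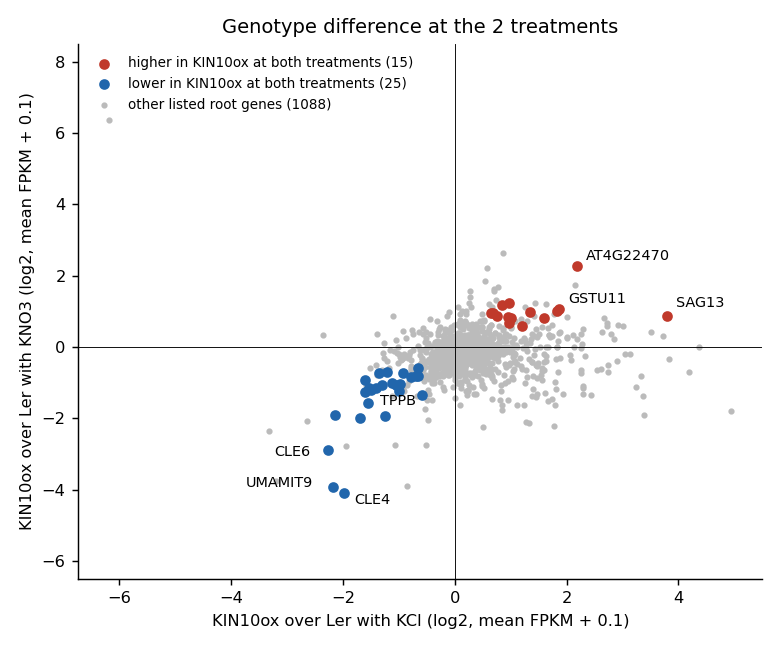
Difference between KIN10ox and Ler roots for each of 1128 listed genes, as the log2 ratio of mean FPKM plus 0.1, with KCl (x axis) and with KNO3 (y axis). The 15 genes higher at both treatments (red) lie in the upper right and the 25 lower genes (blue) in the lower left, and the choice of the genes fixes these positions.

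Among the signalling genes, the CLE pair showed the widest gaps with KNO3, and CLE6 alone the widest with KCl. CLE6 had 0.23, 0.70 and 0.80 FPKM in KIN10ox roots with KNO3, against 4.15, 4.40 and 6.25 in Ler roots. After KCl it had 0.12, 0.46 and 0.23 FPKM in KIN10ox roots, against 1.95, 1.15 and 1.92 in Ler roots. The KIN10ox means were 8.55-fold lower with KNO3 (SE 2.85) and 6.20-fold lower with KCl (SE 2.50). CLE4 had 0, 0.15 and 0.15 FPKM in KIN10ox roots with KNO3, from 2 counts in all, against 1.94, 3.30 and 4.65 in Ler roots. This was 33.0-fold lower, with an exact 95% counting interval of 8.80 to 279. With KCl, CLE4 had no count in KIN10ox roots, against 0.15, 0.30 and 0.44 FPKM in Ler roots, from 6 counts. With KIN10ox set at the floor of 3 counts CLE4 was 1.98-fold lower, a ratio that leaves out the counting error in Ler. Both genes therefore stayed lower in every KIN10ox library than in any Ler library of the same treatment.

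AT4G17670 encodes a DUF581 protein of the FLZ family, whose members are known to bind SnRK1 subunits, and its mean FPKM in Ler roots with KCl was the highest group mean among the lower genes. It had 9.59, 5.79 and 10.7 FPKM in KIN10ox roots with KNO3, against 14.2, 12.6 and 12.9 in Ler roots. With KCl the level was 30.9, 41.3 and 26.4 FPKM in KIN10ox roots, against 48.0, 55.9 and 51.2 in Ler roots. Its difference was among the smallest of the set, 1.52-fold lower with KNO3 (SE 0.27) and 1.57-fold lower with KCl (SE 0.22), and it fell below the threshold without any one of 3 libraries. Its neighbour AT4G17680, annotated as an S-ribonuclease binding protein family gene and separated from it by 7730 bases and no other protein-coding gene, was 1.89-fold lower with KNO3 (SE 0.75) and 1.67-fold lower with KCl (SE 0.25).

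The other signalling genes lower in KIN10ox were AT1G49100, a leucine-rich repeat receptor kinase gene, AT3G58000, which encodes a VQ motif protein, and AGD11 (AT3G07490). AT1G49100 averaged 0.443 ± 0.221 FPKM in KIN10ox roots with KNO3 and 1.18 ± 0.23 in Ler roots (SD, n = 3 each). AGD11 averaged 10.1 ± 4.7 FPKM in KIN10ox roots with KNO3 and 16.7 ± 0.6 in Ler roots, and the 3 KIN10ox libraries, at 10.1, 5.45 and 14.9, spread more widely than the Ler libraries. AT3G58000 was 1.76-fold lower with KNO3 (SE 0.31) and 1.61-fold lower with KCl (SE 0.24). The only gene of this role that was higher was AT2G26695, which encodes a zinc finger protein, with 1.83 ± 0.48 FPKM in KIN10ox roots and 0.983 ± 0.211 in Ler roots with KNO3.

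Transporter and channel genes were mostly on the lower side, with 6 lower and 1 higher. OCT1, an organic cation and carnitine transporter gene, had 1.85, 1.34 and 0.90 FPKM in KIN10ox roots with KNO3, against 2.36, 2.81 and 2.90 in Ler roots. With KCl, OCT1 had 6.48, 5.87 and 5.67 FPKM in KIN10ox roots, against 21.0, 14.1 and 20.0 in Ler roots. The wider gap was with KCl, at 3.06-fold lower (SE 0.38), beside 1.97-fold lower with KNO3 (SE 0.42).
HKT1, which encodes a sodium transporter that withdraws sodium from the root xylem, had 0.40, 0.49 and 0.61 FPKM in KIN10ox roots with KNO3, against 0.98, 1.28 and 1.13 in Ler roots. After KCl the level was 1.85, 1.74 and 1.56 FPKM in KIN10ox roots, against 2.97, 4.03 and 3.49 in Ler roots. Its mean was 2.26-fold lower with KNO3 (SE 0.32) and 2.04-fold lower with KCl (SE 0.20).
UMAMIT9, of a family of amino acid exporters, had no count in KIN10ox roots with KNO3, against 1.63, 1.02 and 1.63 FPKM in Ler roots. With KIN10ox set at the floor of 3 counts it was 30.6-fold lower. With KCl a single count was found in KIN10ox roots, against 0.42, 0.46 and 0.41 FPKM in Ler roots, a 25.8-fold lower mean with a counting interval of 4.58 to 1132. UMAMIT9 was thus close to absent from the KIN10ox libraries at this depth.

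AT1G08440, annotated as an aluminium-activated malate transporter, was 3.89-fold lower with KNO3 (SE 1.17) and 3.15-fold lower with KCl (SE 0.24). AT5G62730, of the major facilitator superfamily, was 2.53-fold lower with KNO3 (SE 0.32) and 3.69-fold lower with KCl (SE 1.91). KCO2, a potassium channel gene, was 2.86-fold lower with KNO3 (SE 0.78) and 1.65-fold lower with KCl (SE 0.30). OPT1, an oligopeptide transporter gene, was the exception, with 0.67, 1.39 and 0.67 FPKM in KIN10ox roots with KNO3 against 0.40, 0.54 and 0.48 in Ler roots, and 3.54, 1.90 and 2.23 FPKM in KIN10ox roots with KCl against 1.36, 1.01 and 1.28 in Ler roots. It was 1.92-fold higher with KNO3 (SE 0.53) and 2.10-fold higher with KCl (SE 0.45).

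**Figure D2:**
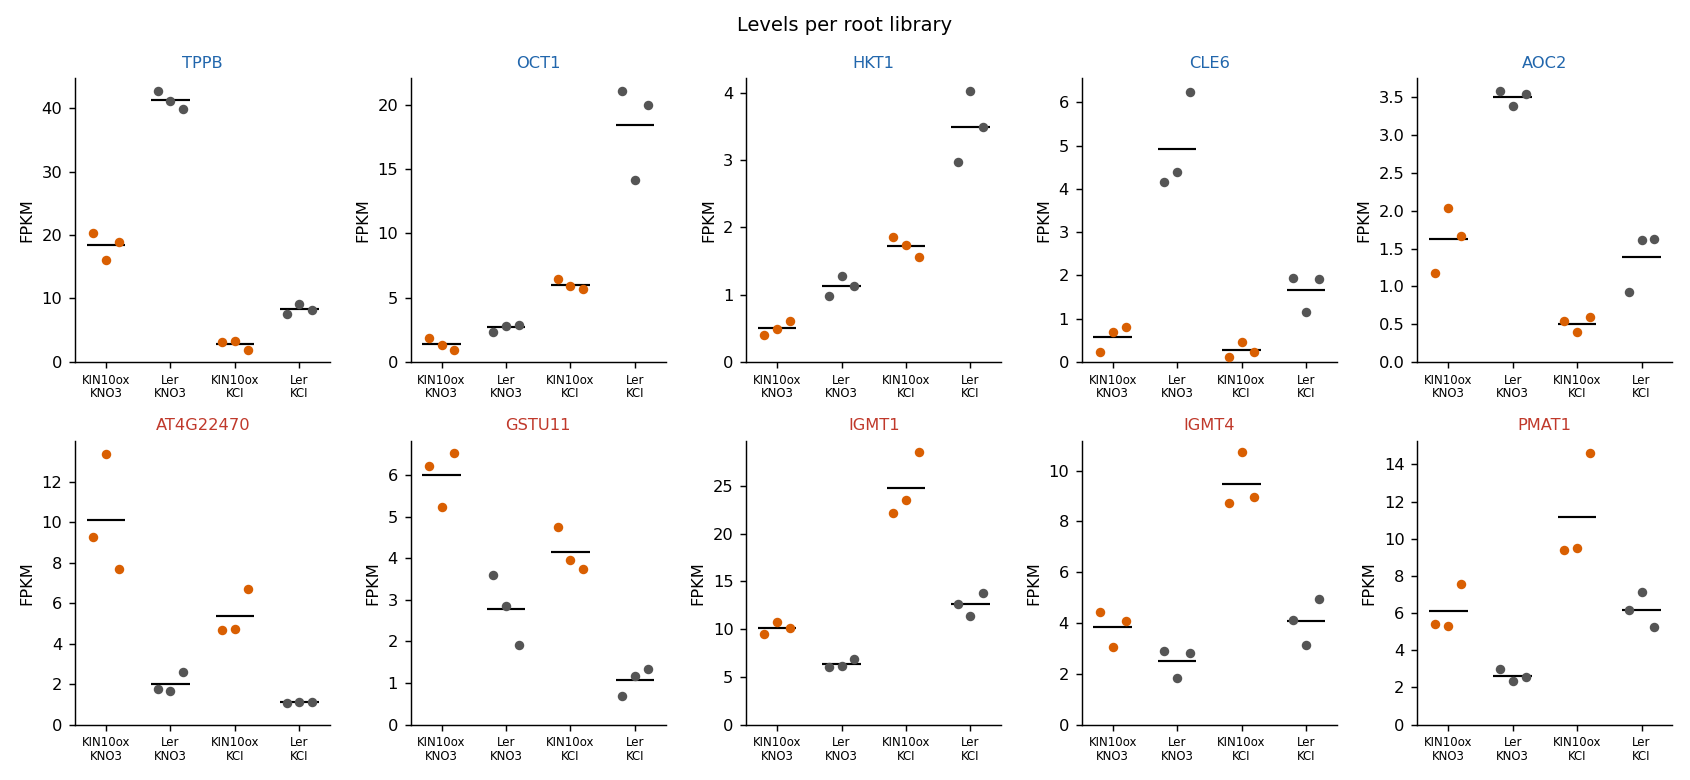
FPKM of 10 genes in each root library (points) with the group mean (line, n = 3), KIN10ox in orange and Ler in grey, for genes lower (blue names) and higher (red names) in KIN10ox. In each panel the KIN10ox points of a treatment lie wholly on one side of the Ler points, as the criteria require, while the effect of KNO3 runs upward in TPPB and downward in OCT1.

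In primary metabolism, TPPB, a trehalose-6-phosphate phosphatase gene, had 20.3, 16.1 and 18.9 FPKM in KIN10ox roots with KNO3, against 42.7, 41.2 and 39.8 in Ler roots. With KCl it had 3.21, 3.26 and 1.88 FPKM in KIN10ox roots, against 7.52, 9.16 and 8.13 in Ler roots. The mean was 2.24-fold lower with KNO3 (SE 0.16) and 2.97-fold lower with KCl (SE 0.51).
EDA36, annotated as a pyridoxal phosphate-dependent transferase, had 21.9, 19.1 and 16.1 FPKM in KIN10ox roots with KNO3, against 35.2, 34.6 and 33.4 in Ler roots. After KCl it had 9.09, 7.38 and 7.31 FPKM in KIN10ox roots, against 14.4, 12.9 and 13.8 in Ler roots. AT1G52560, a small heat shock protein gene of the HSP20 type, averaged 3.58 ± 0.67 FPKM in KIN10ox roots with KNO3 and 8.36 ± 0.54 in Ler roots, and 1.33 ± 0.25 in KIN10ox roots with KCl and 3.91 ± 0.67 in Ler roots. All 3 genes of this role were lower.

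Of the cell wall and apoplast genes, 4 were lower and 4 higher, so the group had no common direction. On the lower side were AT1G10640 and AT4G01890, both annotated as pectin lyase-like, PME61, a pectin methylesterase gene, and AT5G26070, which encodes a hydroxyproline-rich glycoprotein. AT4G01890 averaged 0.457 ± 0.138 FPKM in KIN10ox roots with KNO3 and 1.14 ± 0.16 in Ler roots, and 0.867 ± 0.106 in KIN10ox roots with KCl and 2.48 ± 0.72 in Ler roots. AT1G10640 was 2.19-fold lower with KNO3 (SE 0.32) and 2.11-fold lower with KCl (SE 0.36). PME61 was 1.84-fold lower with KNO3 (SE 0.29) and 2.52-fold lower with KCl (SE 0.58). AT5G26070 was 1.67-fold lower with KNO3 (SE 0.26) and 2.60-fold lower with KCl (SE 0.80).

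On the higher side, AT4G22470, of the protease inhibitor and lipid transfer protein family, showed the largest smaller fold of the 15 higher genes. It had 9.25, 13.4 and 7.68 FPKM in KIN10ox roots with KNO3, against 1.74, 1.64 and 2.61 in Ler roots. With KCl the level was 4.68, 4.73 and 6.69 FPKM in KIN10ox roots, against 1.06, 1.10 and 1.13 in Ler roots. The mean was 5.06-fold higher with KNO3 (SE 1.16) and 4.89-fold higher with KCl (SE 0.61). Its whole length is overlapped by a protein-coding gene on the opposite strand (AT4G22467, over 1317 bases), and the strand setting of the counting is not given in the sources used here, so reads of the pair cannot be told apart.
AT3G26610, a further pectin lyase-like gene, had 8.29, 6.73 and 7.49 FPKM in KIN10ox roots with KNO3, against 4.54, 3.65 and 2.77 in Ler roots. After KCl the level was 5.53, 5.58 and 4.54 FPKM in KIN10ox roots, against 1.24, 1.88 and 1.06 in Ler roots. Its difference was 2.05-fold with KNO3 (SE 0.31) and 3.74-fold with KCl (SE 0.71), so pectin lyase-like genes were found on both sides.

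AT4G16220 and AT4G16233, both annotated as GDSL lipases, lie 4083 bases apart on chromosome 4 with 1 gene between them. AT4G16220 was 1.87-fold higher with KNO3 (SE 0.34) and 1.74-fold higher with KCl (SE 0.32). AT4G16233 was 1.93-fold higher with KNO3 (SE 0.23) and 1.58-fold higher with KCl (SE 0.28). The transcript of AT4G16233 is 91.2% identical over 614 bases to that of AT4G16230, the gene between them, which is also in the root tables. The transcript of AT4G16220 is 88.6% identical to that of AT4G16230 over 360 bases. The counting could split reads among these genes, so the values of AT4G16233, and in part those of AT4G16220, are uncertain.
AT4G16008, with no assigned role, lies nearby on chromosome 4 and was 2.12-fold higher with KNO3 (SE 0.44) and 3.03-fold higher with KCl (SE 1.05). Together with AT4G17670 and AT4G17680 these genes put 5 of the 40 in a stretch of 777 kb (chr4:9067802-9844334), which holds 13 listed root genes. The stretch was singled out after the positions were seen. Of 115 windows of 1 Mb that held a listed gene, 1 had 3 or more of the 40 genes and 4 had 2. Chromosome 4 carried 25.0% of the 40 genes and 16.4% of the listed root genes, and chromosome 1 carried 27.5% and 27.4%.

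The genes of conjugation, defence and specialised metabolism made up 7 of the 15 higher genes. GSTU11, a glutathione transferase gene, had 6.21, 5.24 and 6.52 FPKM in KIN10ox roots with KNO3, against 3.59, 2.85 and 1.92 in Ler roots. With KCl it had 4.76, 3.96 and 3.73 FPKM in KIN10ox roots, against 0.68, 1.17 and 1.33 in Ler roots. The difference was 2.15-fold with KNO3 (SE 0.40) and 3.92-fold with KCl (SE 0.78). GSTF7, another glutathione transferase gene, was 1.98-fold higher with KNO3 (SE 0.32) and 1.62-fold higher with KCl (SE 0.24). UGT74E2, which glucosylates the auxin precursor indole-3-butyric acid, averaged 4.55 ± 0.41 FPKM in KIN10ox roots with KNO3 and 1.87 ± 0.27 in Ler roots. With KCl it averaged 8.75 ± 0.53 in KIN10ox roots and 4.41 ± 0.72 in Ler roots. Its transcript is 89.0% identical over 1407 bases to that of AT1G05675, which is not among the listed root genes, so reads may be shared.

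IGMT1 had 9.48, 10.7 and 10.1 FPKM in KIN10ox roots with KNO3, against 5.98, 6.15 and 6.82 in Ler roots. After KCl it had 22.1, 23.5 and 28.6 FPKM in KIN10ox roots, against 12.6, 11.4 and 13.8 in Ler roots, and no other higher gene reached this level in KIN10ox. IGMT4 had 4.45, 3.06 and 4.07 FPKM in KIN10ox roots with KNO3, against 2.89, 1.84 and 2.82 in Ler roots. With KCl the level was 8.74, 10.7 and 8.97 FPKM in KIN10ox roots, against 4.13, 3.13 and 4.96 in Ler roots, so both genes of the pair were higher at each treatment. Their transcripts are 91.0% identical over 1303 bases, and reads may be shared between them, so the pair may not be independent. The IGMT4 transcript is also 91.0% identical over 1425 bases to that of AT1G21120, which is not among the listed root genes. Its reads may be shared with that gene too. PMAT1, which encodes a malonyltransferase acting on phenolic glucosides, averaged 6.10 ± 1.30 FPKM in KIN10ox roots with KNO3 and 2.64 ± 0.34 in Ler roots, and 11.2 ± 3.0 in KIN10ox roots with KCl and 6.18 ± 0.93 in Ler roots.

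SAG13, a marker of senescence, belonged to the set on few counts. It had 0.15, 0.05 and 0.05 FPKM in KIN10ox roots with KNO3, from 5 counts, against no count in Ler roots. With Ler set at the floor of 3 counts SAG13 was 1.67-fold higher, a ratio that leaves out the counting error of the 5 counts. After KCl the level was 4.13, 0.41 and 0.15 FPKM in KIN10ox roots, against 0, 0 and 0.06 in Ler roots, a 78.2-fold higher mean with a counting interval of 16.5 to 3754. The KCl value came mainly from KIN10ox library 1, one of the libraries with high seed transcripts, and SAG13 did not meet the criteria without it. The part of those transcripts in its level was not tested.

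The 4 genes of this role that were lower were AOC2, AT3G02100, HSD4 and BGLU24. AOC2, an allene oxide cyclase gene of jasmonate synthesis, had 1.18, 2.03 and 1.66 FPKM in KIN10ox roots with KNO3, against 3.59, 3.39 and 3.54 in Ler roots. With KCl, AOC2 had 0.54, 0.39 and 0.59 FPKM in KIN10ox roots, against 0.93, 1.61 and 1.63 in Ler roots. AT3G02100, a glycosyltransferase gene, was 5.24-fold lower with KNO3 (SE 1.00) and 5.10-fold lower with KCl (SE 1.14). Among the lower genes only UMAMIT9 and CLE6, and with KNO3 also CLE4, had a wider gap. HSD4, a hydroxysteroid dehydrogenase gene, was 4.52-fold lower with KNO3 (SE 1.04) and 3.39-fold lower with KCl (SE 0.65), but its transcript is identical over all 1212 bases to that of AT5G50690, so its value cannot be assigned to one of them. BGLU24, a beta-glucosidase gene, was 4.35-fold lower with KNO3 (SE 1.35) and 2.47-fold lower with KCl (SE 0.88). The lower gene with no assigned role, AT5G43180, averaged 9.79 ± 1.06 FPKM in KIN10ox roots with KNO3 and 19.8 ± 1.5 in Ler roots, and AT4G39675, one of the 2 higher genes with no assigned role, averaged 4.93 ± 2.28 and 2.73 ± 0.37.

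**Figure D3:**
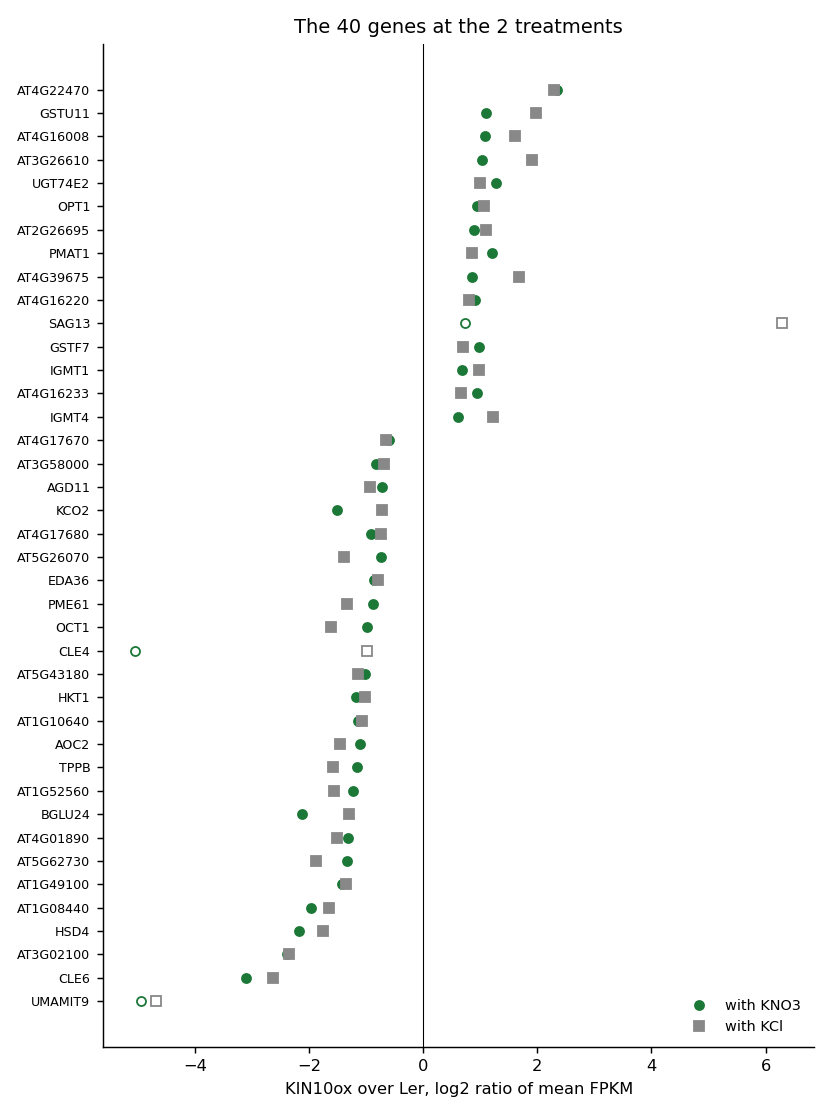
KIN10ox over Ler as the log2 ratio of mean FPKM with KNO3 (circles) and with KCl (squares) for the 40 genes, higher genes above and lower genes below. Open symbols mark ratios that involve a group of at most 3 counts, of SAG13, CLE4 and UMAMIT9. The 15 higher genes sit to the right of 0 and the 25 lower genes to the left.

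The nitrate response of the 40 genes was not used by the criteria, though it comes from the same libraries and every one of the genes was listed by the authors for its response to nitrate in KIN10ox or in Ler. In the authors' deposited table for KIN10ox roots 18 of the 25 lower and 8 of the 15 higher genes appear, against 76.4% of the listed root genes, and in that for Ler roots 22 of the 25 lower and 9 of the 15 higher, against 68.3%. The nitrate response was tested with edgeR's quasi-likelihood test over the 972 of 1128 root genes that passed a filter on low counts, with Benjamini-Hochberg adjustment. Of the 40 genes, 39 were tested, all but SAG13, and CLE4 and UMAMIT9 passed the filter through the Ler libraries with KNO3 alone. CLE6 also depended on those libraries, since no KIN10ox library and only some Ler libraries with KCl met the filter for it. In KIN10ox roots 31 of 39 passed an adjusted p of 0.05 (79.5%), against 91.2% of all genes tested. In Ler roots 37 of 39 passed (94.9%), against 80.5% of all genes tested. CLE4, UMAMIT9 and CLE6 are among the 37 and did not pass in KIN10ox roots. Their way through the filter favoured a rise in Ler, so both counts lean on it.

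Nitrate ran both ways in both genotypes. In KIN10ox roots 14 of the 39 genes rose with KNO3 (35.9%, against 51.6% of all genes tested) and 17 fell (43.6%, against 39.5%). In Ler roots 21 rose (53.8%, against 53.8%), CLE4, UMAMIT9 and CLE6 among them, and 16 fell (41.0%, against 26.6%). With a scaling over the listed genes, which moves the median log2 change of all genes tested by -0.48 in KIN10ox and -0.80 in Ler, 10 rose and 17 fell in KIN10ox roots and 4 rose and 17 fell in Ler roots, so the balance of rises and falls depends on the scaling. The median change of the 25 lower genes was 0.52 on the log2 scale in KIN10ox roots and 0.93 in Ler roots, and that of the 14 higher genes tested was 0.50 in KIN10ox roots and 0.85 in Ler roots, beside 0.67 and 0.95 over all genes tested. Whether the response differed between genotypes was not tested, since the genotype values chose the genes. No gene was called higher with KNO3 in one genotype and lower in the other.

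Of the 25 genes lower in KIN10ox, 9 rose with nitrate in both genotypes, among them TPPB, EDA36, AOC2, AT1G52560, AT5G43180 and AT5G62730, and 48.3% of all genes tested rose in both. TPPB rose 6.62-fold with KNO3 in KIN10ox roots (log2 change 2.72 ± 0.19, SE, edgeR adjusted p = 7.7e-08) and 4.99-fold in Ler roots (2.32 ± 0.18, adjusted p = 1.5e-07). EDA36 rose 2.40-fold in KIN10ox roots (1.26 ± 0.14, edgeR adjusted p = 3.5e-06) and 2.52-fold in Ler roots (1.33 ± 0.13, adjusted p = 1.5e-06). AGD11, AT3G58000 and AT1G49100 also rose in both. With the scaling over the listed genes, 2 of the 9, TPPB and EDA36, kept both calls, and 26.3% of all genes tested rose in both. Without any 1 library 7 of the 9 kept them, all but AT5G62730 and AT1G49100. The lower level of these genes in KIN10ox follows from how they were chosen. TPPB, for one, had 18.4 ± 2.1 FPKM after KNO3 in KIN10ox roots and 41.2 ± 1.4 in Ler roots.

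Another 10 of the 25 fell with nitrate in both genotypes, and 3 of these are transporter genes, while 25.0% of all genes tested fell in both. All 10 kept both calls with the scaling over the listed genes, where 35.3% of all genes tested fell in both. That scaling moves changes downward, which favoured these calls in advance. Without any 1 library 8 kept them, all but AT4G17680 and AT4G01890. OCT1 fell with KNO3 by 2.14 on the log2 scale in KIN10ox roots (SE 0.23, edgeR adjusted p = 3.7e-06) and by 2.77 in Ler roots (SE 0.22, adjusted p = 2.6e-07). HKT1 fell by 1.78 in KIN10ox roots (SE 0.24, edgeR adjusted p = 2.2e-05) and by 1.63 in Ler roots (SE 0.22, adjusted p = 1.9e-05). AT1G08440 fell by 2.04 in KIN10ox roots and 1.74 in Ler roots, and AT4G17670 fell by 1.92 in KIN10ox roots and 1.97 in Ler roots. The pectin lyase-like genes AT1G10640 and AT4G01890, PME61, AT3G02100, HSD4 and AT4G17680 fell as well. The 25 genes were chosen for a lower level in KIN10ox, and they held genes that nitrate raised and genes that it lowered.

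CLE6 and KCO2 rose with KNO3 in Ler roots and did not pass the test in KIN10ox roots. CLE6 rose by a log2 change of 1.55 ± 0.39 in Ler roots (edgeR adjusted p = 0.0026) and had 1.06 ± 0.60 in KIN10ox roots (adjusted p = 0.11). It passed in KIN10ox roots without KIN10ox library 2 with KCl (1.65) or KIN10ox library 1 with KNO3 (1.43). KCO2 had a log2 change of 0.52 ± 0.40 in KIN10ox roots (edgeR adjusted p = 0.22) and 1.30 ± 0.35 in Ler roots (adjusted p = 0.0039). With the scaling over the listed genes KCO2 did not pass in Ler roots, with a change of 0.50, and CLE6 had a change of 0.76 there.
CLE4 and UMAMIT9 entered the test through their Ler libraries with KNO3, so a rise in Ler was favoured in advance and their counts are given with no test. CLE4 had 2 counts with KNO3 and none with KCl over the 3 KIN10ox libraries, against 66 and 6 over the 3 Ler libraries. UMAMIT9 had none with KNO3 and 1 with KCl in KIN10ox, against 92 and 28 in Ler. BGLU24 fell with KNO3 in KIN10ox roots (log2 -1.29 ± 0.44, edgeR adjusted p = 0.015) and had -0.48 ± 0.40 in Ler roots (adjusted p = 0.28). It did not pass in KIN10ox without KIN10ox library 2 with KCl (-0.73) or KIN10ox library 2 with KNO3 (-0.93), and in Ler it passed with the scaling over the listed genes (-1.28). AT5G26070 passed the test in neither.

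Of the 14 higher genes tested, 6 fell with nitrate in both genotypes, beside 25.0% of all genes tested: UGT74E2, GSTF7, IGMT1, IGMT4, PMAT1 and OPT1. OPT1 is a transporter gene and the others are of conjugation, defence or specialised metabolism, a role in which GSTU11 did not fall. All 6 kept both calls with the scaling over the listed genes, which favours falls and where 35.3% of all genes tested fell in both. All but IGMT4 kept them without any 1 library. IGMT1 fell by 1.29 on the log2 scale in KIN10ox roots (SE 0.13, edgeR adjusted p = 2.2e-06) and by 1.00 in Ler roots (SE 0.14, adjusted p = 2.0e-05). UGT74E2 fell by 0.95 in KIN10ox roots (SE 0.16, edgeR adjusted p = 0.00020) and by 1.23 in Ler roots (SE 0.17, adjusted p = 2.9e-05). A further 5 rose in both genotypes, beside 48.3% of all genes tested. They were AT4G22470, AT3G26610, AT4G16220, AT4G16233 and AT2G26695, of which 4 are cell wall or apoplast genes. None of the 5 kept both calls with the scaling over the listed genes, and 2, AT4G16220 and AT4G16233, kept them without any 1 library. AT2G26695 passed in neither genotype with DESeq2, and AT3G26610 did not pass in KIN10ox roots without most single KIN10ox libraries (log2 change 0.43 to 0.57). AT4G22470 had a log2 change of 0.91 ± 0.24 in KIN10ox roots (edgeR adjusted p = 0.0040) and 0.86 ± 0.28 in Ler roots (adjusted p = 0.012). GSTU11, AT4G16008 and AT4G39675 rose in Ler roots and did not pass the test in KIN10ox roots, where GSTU11 had 0.53 ± 0.27 (edgeR adjusted p = 0.079) beside 1.39 ± 0.30 in Ler roots (adjusted p = 0.00090). With the scaling over the listed genes none of these 3 passed in Ler roots.

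**Figure D4:**
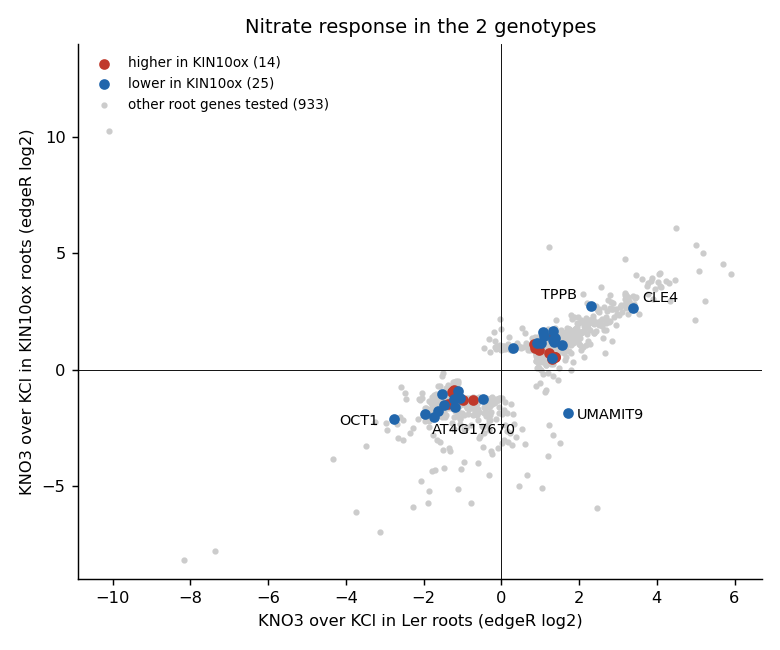
Log2 change with KNO3 over KCl from edgeR in KIN10ox roots (y axis) against Ler roots (x axis) for 972 root genes tested, with the genes higher (red, 14) and lower (blue, 25) in KIN10ox. Genes of both colours lie in the upper right and in the lower left, and UMAMIT9, which rests on a single count in KIN10ox, is the only one of the 39 in the lower right.

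In mesophyll protoplasts, values were given for 2 of the 40 genes, EDA36 and AT4G39675 (5.00%, against 22.0% of the listed root genes). These are leaf cells of another accession with brief expression, and the comparison therefore differs from that in roots in more than the tissue. EDA36 had 0.22, 0.07 and 0.37 FPKM with NLP7 and KIN10, against 5.33, 4.36 and 5.40 with NLP7 alone. With GFP it had 0.08, 0.14 and 0 FPKM, and the NLP7 libraries stood above all others. The authors listed EDA36 in protoplasts for NLP7 against GFP alone, so its high level with NLP7 put it in the table and through the filter, and the 2 differences from that group are given with no test. Over the 3 libraries it had 16 counts with NLP7 and KIN10, 373 with NLP7 alone and 5 with GFP. The mean with NLP7 and KIN10 was 22.9-fold below that with NLP7 alone, and 86.4% of the 1722 protoplast genes tested were called lower in this comparison. With NLP7 alone it was 68.6-fold above GFP, where 91.3% of genes were called higher. Against GFP, EDA36 had a log2 change of 1.48 ± 0.75 with NLP7 and KIN10 (edgeR adjusted p = 0.14), where 31.6% of genes were called higher. The comparisons share libraries and are not independent of each other.

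AT4G39675 had 1.76, 0.50 and 1.58 FPKM with NLP7 and KIN10, against 1.83, 1.17 and 1.88 with NLP7 alone, and 0.27, 0.31 and 0.28 with GFP. It rested on 14, 18 and 3 counts in these groups and did not pass the filter on low counts, so it was not tested. NLP7 with KIN10 was 4.47-fold higher than GFP, with a counting interval of 1.18 to 23.0, and NLP7 alone was 5.67-fold higher, with an interval of 1.63 to 29.6. Its libraries with NLP7 and KIN10 overlapped those with NLP7 alone.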

How the data were processed

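Libraries were sequenced on a BGISEQ-500 and mapped to TAIR10 with HISAT and Bowtie2, per the labels and the submitters' processing notes. Per the file headers, the authors deposited FPKM, TPM and expected counts per library, and log2 fold changes with p-values for genes they selected (DESeq2 in the headers, NOISeq in the study's description). The tables' 18 columns of samples outside the sample list were not used. The members, gene lists and tests were chosen with earlier results of these data known. Labels call the 3 libraries of a group biological replicates.

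FPKM set the membership and the folds (ratios of means, SE from the SD of each group, n = 3). Counts were rounded and tested with edgeR 4.0.16 (R 4.3.3) on library sizes recovered from counts and FPKM of genes with at least 200 counts, with filterByExpr, no further scaling, and spread shared over the 12 root or 9 protoplast libraries; p-values were adjusted over all genes tested and 0.05 was the threshold. Tests were checked on simulated data. A group at 0 was set to 3 counts, and the ratio leaves out the counting error of the other group, so it is not a lower limit. Intervals are exact binomial at 95%. Both cover counting error only. Gene positions were the same in TAIR10.1 for all 40 genes. Similar transcripts were sought with BLAST 2.17.0. The rule for named genes took EXT13, the 12 genes of each direction with the largest smaller fold of the 2 treatments, cell wall annotations, genes called in protoplasts and 3 genes on either side of the threshold, and the other genes were added so that all 40 are accounted for. Alternatives were TMM factors, DESeq2 1.42.0, no filter, a replicate block, each library left out and, for membership, TPM, a 2-fold threshold and other minimum levels.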

Additional observations from a re-analysis of the deposited data

How the results depend on the processing

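The number of genes meeting the criteria was 41 with TPM in place of FPKM, 21 at a 2-fold threshold (all of them among the 40), 43 with no minimum level, 20 with a minimum of 5 FPKM, and 40 to 46 when any 1 of the 12 root libraries was left out. Of the 40 genes, 29 met the criteria without any 1 library, and 11 (GSTF7, IGMT4, SAG13, AGD11, AT3G58000, AT4G16233, AT4G17670, AT4G17680, AT4G39675, KCO2 and OPT1) lost membership without at least 1. As alternatives chosen after seeing the data, 57 genes met them without KIN10ox libraries 1 and 3 with KCl, 35 of them among the 40, and 90 met them without a fold threshold. The 39 genes tested for nitrate include CLE4, UMAMIT9 and CLE6. Of these, 28 to 32 were called in KIN10ox roots and 34 to 37 in Ler roots over the omission of single libraries. With TMM factors over the listed genes 21 were called in Ler roots. Scaling over the listed genes moved the median log2 change by 1.48 for KIN10 added to NLP7, -0.34 for NLP7 with KIN10 against GFP and -1.83 for NLP7 against GFP. In protoplasts EDA36 and AT4G39675 were listed for NLP7 against GFP alone, so their differences from the NLP7 group carry no test under any setting. For NLP7 with KIN10 against GFP neither was called, except EDA36 without library 2 of NLP7 with KIN10. The sign turned for AT4G39675 in KIN10ox roots (-0.013 with TMM) and for AT5G26070 in Ler roots (-0.52 with TMM, and -0.058 to 0.65 over the omission of single libraries, the lowest without Ler library 3 with KCl), neither of them called there in the first place. The cause was not tested. Replicate numbers were not used as pairs. Correlations over 0.1 were found for 8 of 18 same-numbered root pairs (range -0.255 to 0.378) and 1 of 9 protoplast pairs. Differently numbered libraries were not compared, so whether the numbers pair the libraries was not tested. With a replicate block 31 genes were called in KIN10ox roots and 37 in Ler roots, and in protoplasts 1, 0 and 1 as before. Low counts limit CLE4, UMAMIT9 and SAG13.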
